A study of Mus musculus with 11 samples.

Results

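The nuclei described here came from sensory neurons of the mouse trigeminal ganglion and carried transcripts of injury genes. They held more transcripts of Gfra1, Pcdh7 and Ntng1 than of Gal, Tshz2 and Rgs4. They were chosen by a gate on their own counts, and injury of the neuron itself was not observed. A nucleus passed as injured when it held at least 4 unique molecular identifiers (UMIs, each standing for 1 captured RNA molecule) summed over Atf3, Sema6a, Sprr1a, Itgb6, Flrt3 and Gadd45a, from at least 2 of these 6 genes. An injured nucleus was placed on the Gfra1 side when its summed UMIs of Gfra1, Pcdh7 and Ntng1 exceeded those of Gal, Tshz2 and Rgs4. This gave 1096 Gfra1-side injured nuclei among the 32813 nuclei of the 6 injury tables, in a series of 40359 nuclei over 8 tables. The injured nuclei left over were 635 with the reverse inequality, called Gal-side here, and 57 with equal sums. Nuclei of the same libraries with 0 UMIs of the 6 injury genes formed the uninjured sets, with 8207 nuclei on the Gfra1 side and 12459 on the Gal side. The 12 gate genes chose the nuclei, so their values are given as a description and entered no test.

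Injury followed 1 of 3 procedures. In IOT, a partial transection of the infraorbital nerve that the labels call spared nerve injury, the superficial branches were cut and not tied, and ganglia of C57BL mice were taken after 2, 7, 21 or 75 days. Facial injury was a set of shallow cuts to the skin of cheek and forehead in C57BL mice, with ganglia taken after 2 days. Scratch lesions were open skin lesions in chronically scratching mice of an FVBN/C57BL/129 mix that carried Fos-tTA and a tetO-mCherry-2A-Gnaq transgene, whose mCherry the study did not find in somatosensory neurons. The time since the lesions arose is not given, and mice with visible lesions were picked. The uninjured control was wildtype C57BL, as 1 10x library and 1 Drop-seq table whose nuclei carry no library label. All mice were over 6 weeks old, with males and females pooled, and nuclei were enriched with an antibody to NeuN, a neuronal nuclear protein. Each injury condition was 1 library of pooled mice. A test below therefore asks whether a difference between sets of nuclei within a library recurred over 6 libraries, and not whether a condition had an effect. The neuron type of a nucleus was not labelled, so a change of RNA within a type and a different mix of types cannot be told apart.

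Gfra1 encodes the co-receptor that binds glial cell line-derived neurotrophic factor and presents it to the receptor tyrosine kinase Ret, which supports survival and axon growth of sensory neurons. Pcdh7 encodes a protocadherin, a cell adhesion protein, and Ntng1 encodes netrin-G1, a membrane-anchored relative of the netrin guidance cues. Cutting a peripheral axon is known to switch on a set of genes led by the transcription factor Atf3 in the cell body, with growth-associated proteins, secreted signals and neuropeptides rising while genes of the mature sensory neuron fall. Large-diameter trigeminal neurons mostly carry touch signals through thickly myelinated axons, whereas small-diameter neurons mostly carry pain, itch and temperature.

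Gfra1-side injured nuclei were most frequent 2 days after IOT. They made up 450 of 4611 nuclei (9.76%, exact 95% interval 8.92 to 10.7) at day 2, 201 of 4033 (4.98%, 4.33 to 5.70) at day 7, 197 of 4046 (4.87%, 4.23 to 5.58) at day 21 and 124 of 3634 (3.41%, 2.85 to 4.05) at day 75. The share was 50 of 8660 (0.577%, 0.429 to 0.760) after facial injury and 74 of 7829 (0.945%, 0.743 to 1.19) with scratch lesions. The same gate passed 0.206% (0.0943 to 0.391) of the uninjured control nuclei measured with 10x, as 9 among 4368, and 0.189% (0.0693 to 0.410) of those measured with Drop-seq, as 6 among 3178. Sprr1a was not listed in the 10x control table. Every injury library lay above both control tables, and the intervals of facial injury and both control tables did not overlap. Depth differed between libraries, with medians over all nuclei of 3323, 1747, 3138 and 4178.5 UMIs at IOT days 2, 7, 21 and 75. With UMIs thinned to 1104 per nucleus, the IOT shares were 2.41%, 1.49%, 0.964% and 0.413% in that order. Facial injury was then at 0.0513%, below the Drop-seq control at 0.0688%. After thinning, the intervals of facial injury and scratch lesions each overlapped those of both control tables. That of IOT day 75 (0.231 to 0.680) overlapped that of the Drop-seq control (0.00833 to 0.248). With at least 6 injury UMIs, facial injury overlapped the Drop-seq control, and without high-UMI nuclei it overlapped both control tables. With a UMI of Atf3 required, facial injury and scratch lesions each overlapped the Drop-seq control. These intervals cover counting error only, and no test between conditions was made.

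**Figure D1:**
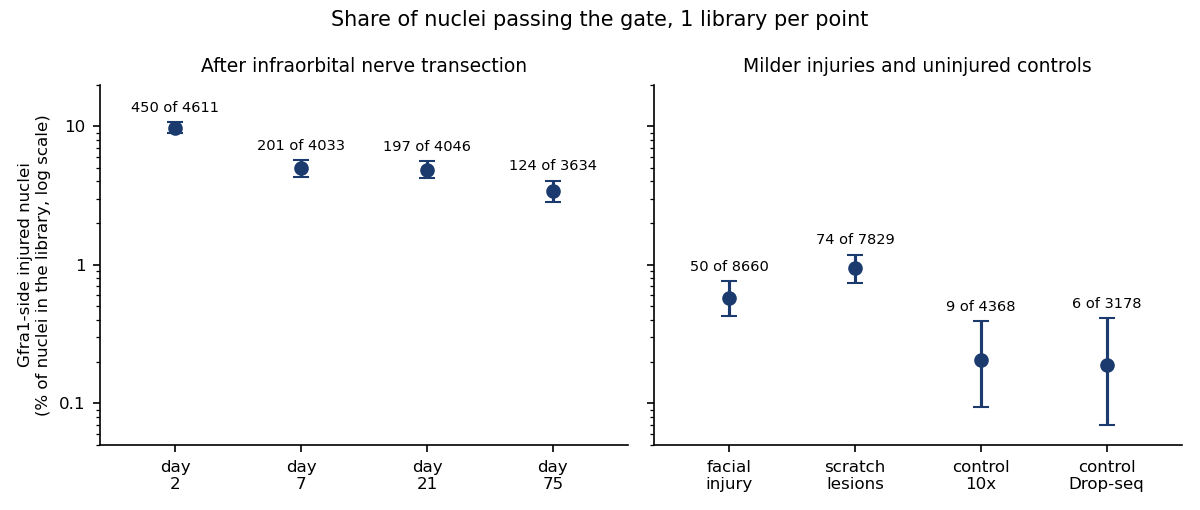
Gfra1-side injured nuclei as a percentage of all nuclei in each library, on a log axis, with exact 95% binomial intervals. The left panel runs over days after IOT, where the share lies between 9.76% at day 2 and 3.41% at day 75, and the right panel shows facial injury, scratch lesions and the 2 control tables, where every share is under 1%.

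Among all nuclei that passed as injured, the Gfra1 side held 69.6% at IOT day 2 (65.8 to 73.1), 63.0% at day 7 (57.5 to 68.3), 78.8% at day 21 (73.2 to 83.7) and 72.5% at day 75 (65.2 to 79.1). It held 40.3% (31.6 to 49.5) after facial injury and 26.7% (21.6 to 32.3) with scratch lesions, so the Gal side was the larger one in those libraries.

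The markers in the name of the nuclei are all gate genes, so their presence describes the gate and is no check of the name. Of the 1096 nuclei, 1004 held a UMI of Pcdh7, 938 of Gfra1 and 610 of Ntng1, while 489 held one of Tshz2, 423 of Rgs4 and 214 of Gal, and 717 (65.4%) held a UMI of Atf3. Atf3 was found in 63.6%, 79.1%, 76.1% and 39.5% of the nuclei at IOT days 2, 7, 21 and 75, in 72.0% after facial injury and in 50% with scratch lesions. At day 75 most nuclei had therefore passed on other injury genes, chiefly Sema6a, which was found in 118 of 124. The median nucleus held 8 UMIs of the 6 injury genes and the highest held 73. Just inside the thresholds were 201 nuclei with exactly 4 injury UMIs and 91 that led by 1 UMI on the Gfra1 side. Just outside were 357 Gfra1-side nuclei with 3 injury UMIs, 69 with at least 4 from a single gene and the 57 with equal sums.

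The gate used raw UMIs, with no correction for the depth of a nucleus. Median UMIs per nucleus ran from 2493 to 5874 over libraries in Gfra1-side injured nuclei, from 2237 to 7240 in Gal-side injured nuclei and from 1760 to 4125 in Gfra1-side uninjured nuclei, and every library had a higher median in the injured than in the uninjured nuclei of the Gfra1 side. After facial injury 36.0% of the Gfra1-side injured nuclei and with scratch lesions 27.0% lay above the 95th percentile of their library, against 6.09% to 15.3% after IOT. Their summed depth was 268831 to 2467416 UMIs per library. Pairs of libraries shared 16 to 92 cell barcodes, at most 1.37% of the smaller library, and doublets were not called. Levels below are the UMI counts summed over a set of nuclei and scaled to the same total for every set (CPM). They are given as the lowest, median and highest of 6 libraries, or in the order of IOT at 2, 7, 21 and 75 days, facial injury and scratch lesions where 6 values are listed.

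Against Gal-side injured nuclei of the same libraries, Gfra1-side injured nuclei carried more RNA of large-diameter neuron genes and less of small-diameter neuron genes. The study names the gate genes Pcdh7 and Ntng1 as prominent in larger neurons, and Tshz2 and Rgs4 as markers of smaller ones. A split on these genes favors this direction in advance, so it describes the split and is no independent finding. The lists also hold genes that the study named from these data, such as Map2 and Scn10a. Of 7749 genes tested with edgeR quasi-likelihood fits that blocked on library, 657 were higher (8.48%) and 564 were lower (7.28%) at a Benjamini-Hochberg adjusted p under 0.05. Of 26 large-diameter genes tested 19 were higher and 0 lower, with a median log2 fold change of 0.89, and of 17 small-diameter genes 16 were lower and 0 higher, with a median of -1.33. The median over all genes tested was -0.0035. The direction was the same in all 6 libraries for 873 of the 1221 genes called, and for 119 of 7749 genes (1.54%) the levels of the 2 sides did not overlap over libraries.

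Calb2, at chr8:110137502-110168210, minus strand in the mm10 build used for all gene positions here, encodes the calcium buffer calretinin and had the largest fold among the genes named by rule. It stood at 65.3, 60.2, 31.2, 62.5, 67.0 and 20.01 CPM in Gfra1-side injured nuclei, against 10.5, 0, 9.14, 10.1, 9.82 and 6.59 CPM in Gal-side injured nuclei. No library of one side reached the level of the other, with a log2 fold change of 2.63 ± 0.30 (adjusted p = 2.9e-06). The RNA was uneven among the nuclei: 86 of 1096 held all 314 UMIs and 1 nucleus alone held 31, against 22 UMIs in 22 of 635 Gal-side injured nuclei.

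Chrm3, the M3 muscarinic acetylcholine receptor, had 62.5, 122 and 291 CPM (lowest, median and highest) in Gfra1-side and 18.3, 23.2 and 42.1 CPM in Gal-side injured nuclei, without overlap, and a log2 fold change of 2.43 ± 0.22 (adjusted p = 2.2e-07). Kcnh5, a voltage-gated potassium channel, had 55.4, 63.6 and 84.6 CPM on the Gfra1 side against 4.91, 10.2 and 30.3 CPM on the Gal side, a log2 fold change of 2.34 ± 0.26 (adjusted p = 2.3e-06). Of 32 potassium channel genes tested 9 were higher and 12 lower, so the family split between the sides and its median is no summary of it. Slc17a7, the vesicular glutamate transporter VGLUT1, had 50.1, 138 and 227 CPM in Gfra1-side injured nuclei and 17.5, 47.4 and 96.1 CPM in Gal-side injured nuclei. These ranges overlapped across libraries but the Gfra1 side was higher within each of the 6, with a log2 fold change of 1.55 ± 0.19 (adjusted p = 8.2e-06).

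Igf1, the secreted insulin-like growth factor, had 37.2, 93.6 and 153 CPM on the Gfra1 side against 4.91, 13.9 and 59.4 CPM on the Gal side, a log2 fold change of 2.34 ± 0.22 (adjusted p = 3.7e-07). Map2, which stabilizes microtubules in cell bodies and dendrites, had 825, 899 and 1247 CPM on the Gfra1 side against 228, 305 and 498 CPM on the Gal side, with no overlap and a log2 fold change of 1.58 ± 0.12 (adjusted p = 5.6e-08). Palld, which encodes the actin-binding protein palladin, had 183, 389 and 700.2 CPM on the Gfra1 side against 88.4, 131 and 242 CPM on the Gal side, with the Gfra1 side higher in 6 of 6 libraries and a log2 fold change of 1.52 ± 0.16 (adjusted p = 1e-06). Of 23 cytoskeleton and growth cone genes tested, though, 4 were higher and 8 lower. Lmo7, a LIM domain protein, and Marcks, a membrane substrate of protein kinase C that binds actin, were among the lower ones at -1.33 ± 0.18 and -1.27 ± 0.18.

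Esrrg and Maf, transcription factors known from touch neurons, were higher. Esrrg, an orphan nuclear receptor, had 131, 185 and 296 CPM in Gfra1-side against 25.04, 54.1 and 124 CPM in Gal-side injured nuclei, with no overlap and a log2 fold change of 1.90 ± 0.18 (adjusted p = 4.4e-07). Maf, which is needed for rapidly adapting mechanoreceptors in mice, had 134, 201 and 269 CPM on the Gfra1 side against 39.5, 81.9 and 111 CPM on the Gal side, also with no overlap, and a log2 fold change of 1.56 ± 0.15 (adjusted p = 4.7e-07). Of 21 identity transcription factors tested 7 were higher and 5 lower, and the lower ones included Runx1 and Prdm12, which specify nociceptors. Runx1 had 37.5, 47.0 and 102 CPM in Gfra1-side and 123, 182 and 212 CPM in Gal-side injured nuclei, a log2 fold change of -1.64 ± 0.19 (adjusted p = 2.3e-06), and Prdm12 had one of -1.31 ± 0.19 (adjusted p = 3.5e-05).

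Of 7 netrin-G and netrin pathway genes tested 3 were higher and 0 lower. Dcc, the netrin-1 receptor, had 37.2, 73.7 and 108 CPM on the Gfra1 side against 6.59, 19.0 and 38.3 CPM on the Gal side, a log2 fold change of 1.93 ± 0.23 (adjusted p = 5.8e-06), and Ntng2, which encodes netrin-G2, had 33.5, 63.6 and 111 CPM on the Gfra1 side against 9.82, 22.5 and 43.0 CPM on the Gal side, a log2 fold change of 1.70 ± 0.20 (adjusted p = 4.2e-06). Of 26 semaphorin, plexin, Eph, Slit and Robo genes 8 were higher and 3 lower. Slit2, a secreted repellent, and its receptor Robo1 were among the higher ones, with log2 fold changes of 1.44 ± 0.18 (adjusted p = 7.2e-06) and 1.43 ± 0.18 (adjusted p = 9.2e-06), and the semaphorin gene Sema3c was among the lower ones, at -0.81 ± 0.22 (adjusted p = 0.012). Of 6 protocadherins tested beside the gate gene, 3 were higher and 0 lower, and Pcdh9 had 2143, 3379 and 5123 CPM on the Gfra1 side against 888, 1887 and 4149 CPM on the Gal side. The GDNF and Ret list went the other way, with 0 of 17 genes higher and 5 lower. Its lower genes included the other co-receptors Gfra2, at -1.04 ± 0.26, and Gfra3, at -1.72 ± 0.34 on the log2 scale.

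Cacna1c and genes of nociceptors were lower on the Gfra1 side. Of 15 calcium and HCN channel genes tested 4 were lower and 2 higher. Cacna1c, the pore of the L-type calcium channel Cav1.2, stood at 181, 143, 100.2, 144, 126 and 92.6 CPM in Gfra1-side injured nuclei, against 787, 735, 653, 619.6, 289.6 and 557 CPM in Gal-side injured nuclei. The groups did not overlap, and the log2 fold change was -2.18 ± 0.15 (adjusted p = 2.9e-08). Scn10a, the nociceptor sodium channel Nav1.8, had 22.2, 104 and 181 CPM on the Gfra1 side against 214, 302 and 526 CPM on the Gal side, again with no overlap, and a log2 fold change of -1.79 ± 0.18 (adjusted p = 7.2e-07). Calca, the source of the neuropeptide CGRP, had 45.9, 206 and 569 CPM on the Gfra1 side against 149, 531 and 1127 CPM on the Gal side, overlapping across libraries but lower within each of the 6, with a log2 fold change of -1.41 ± 0.18 (adjusted p = 7.9e-06).

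P2rx3, an ATP-gated channel of nociceptors, had a log2 fold change of -1.93 ± 0.29 (adjusted p = 5.5e-05), the heat-sensing channel gene Trpm3 one of -1.56 ± 0.18 (adjusted p = 3.8e-06), and the kainate receptor gene Grik1 one of -1.84 ± 0.24 (adjusted p = 1.2e-05). Syt9, a vesicle calcium sensor, had 14.3, 31.3 and 57.3 CPM in Gfra1-side injured nuclei and 82.2, 118 and 257 CPM in Gal-side injured nuclei, a log2 fold change of -2.01 ± 0.16 (adjusted p = 6.9e-08). Camk2a, a calcium-dependent kinase, had 7.79, 11.9 and 21.5 CPM on the Gfra1 side against 24.5, 55.2 and 72.5 CPM on the Gal side, with no overlap and a log2 fold change of -2.12 ± 0.24 (adjusted p = 2.1e-06). Unc13c, a vesicle priming factor, had 34.9, 61.7 and 72.5 CPM on the Gfra1 side against 169, 257 and 494 CPM on the Gal side and a log2 fold change of -2.08 ± 0.18 (adjusted p = 1.5e-07). Of 25 synaptic release genes 6 were higher and 6 lower, so neither side had more of them.

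Of 12 sodium channel genes tested 4 were higher and 4 lower. Scn1a, the Nav1.1 channel of large neurons, had 69.7, 171 and 245 CPM on the Gfra1 side against 30.3, 76.3 and 192 CPM on the Gal side, a log2 fold change of 0.91 ± 0.20 (adjusted p = 0.0024), while Scn11a, the nociceptor channel Nav1.9, had 17.8, 23.9 and 43.0 CPM on the Gfra1 side against 32.0, 75.1 and 183 CPM on the Gal side, a log2 fold change of -1.48 ± 0.23 (adjusted p = 8e-05). Ntrk3, the receptor of neurotrophin-3, was higher by 0.74 ± 0.13 (adjusted p = 0.00045) and Calb1, which encodes the calcium buffer calbindin, by 2.05 ± 0.27 (adjusted p = 1.6e-05). Rgs6, a regulator of G protein signaling, had 139, 216 and 402 CPM on the Gfra1 side against 22.4, 35.6 and 167 CPM on the Gal side, a log2 fold change of 2.22 ± 0.23 (adjusted p = 7.4e-07).

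The remaining genes with the largest folds between the sides have varied roles. Among the higher ones were Arhgap6, at 2.36 ± 0.24, Mical2, an actin-oxidizing enzyme gene, at 2.11 ± 0.24, Tmem108 at 2.0995 ± 0.22 and the long noncoding RNA gene Gm20754 at 2.28 ± 0.19. Among the lower ones were Tmem45b at -2.25 ± 0.28, Emp3, an epithelial membrane protein gene, at -2.23 ± 0.25, Gnb4, a G protein beta subunit gene, at -2.12 ± 0.21, and Sdc1, which encodes the proteoglycan syndecan-1, at -2.11 ± 0.31. Ptprt, a receptor phosphatase gene, and Ccdc60 had -2.07 ± 0.19 and -2.04 ± 0.23. All of these passed the test.

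Part of the regeneration-associated genes was lower on the Gfra1 side. Of 22 tested, 7 were lower and 1 was higher, with a median log2 fold change of -0.33. The higher one was Npy, whose call was lost without IOT day 2, 7 or 75. Cd44, a hyaluronan receptor, had 60.0, 75.4 and 126 CPM on the Gfra1 side against 91.4, 227 and 658 CPM on the Gal side, a log2 fold change of -1.46 ± 0.28 (adjusted p = 0.00086). Sox11, a transcription factor of growing neurons, had 260.1, 386 and 693 CPM on the Gfra1 side against 197, 716 and 745 CPM on the Gal side and did not pass, at -0.52 ± 0.19 (adjusted p = 0.075). Without the library block 79 genes were higher and 83 lower between the sides, and without the IOT day 2 library 429 and 340. With UMIs thinned to 1104 per nucleus before gating, 2 libraries kept enough nuclei on both sides, 70 genes were higher and 37 lower, and Grik1 turned to 0.29.

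The uninjured nuclei of the same libraries were split by the same 6 side genes and compared in the same way. There 3909 of 13610 genes were higher (28.7%) and 3502 were lower (25.7%) on the Gfra1 side. These calls share no nuclei with the injured sets, though they come from the same libraries. They rest on the same 6 side genes, so agreement between the splits is no independent support. Of the 657 genes higher on the Gfra1 side among injured nuclei, 625 were also higher among uninjured nuclei, 6 were lower and 26 were not called. Of the 562 lower genes tested in both, 531 were also lower, 3 were higher and 28 were not called. Log2 fold changes of Calb2 were 2.63 ± 0.30 among injured and 2.36 ± 0.16 among uninjured nuclei, and those of Cacna1c were -2.18 ± 0.15 and -3.02 ± 0.09.

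**Figure D2:**
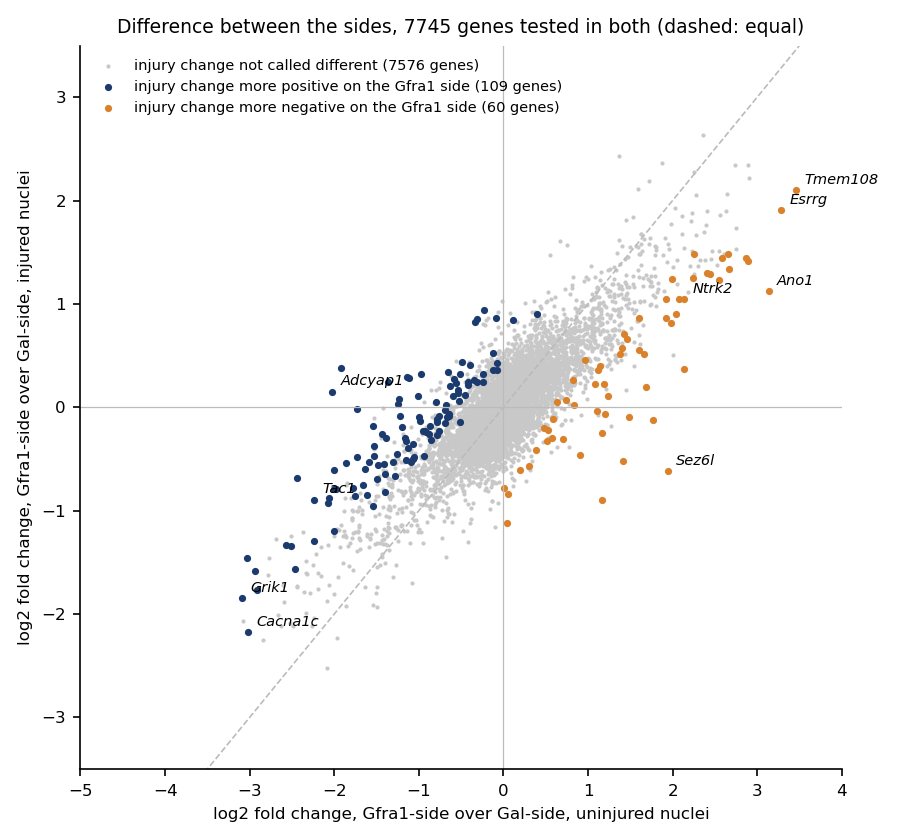
Log2 fold change of the Gfra1 over the Gal side in injured nuclei (vertical axis) against the same in uninjured nuclei (horizontal axis) for the 7745 genes tested in both, each point 1 gene. The dashed line marks equal values, and the injury change was called more positive on the Gfra1 side in 109 genes (blue) and more negative in 60 (orange). Of the genes called higher in injured nuclei 625 of 657 were also called higher in uninjured ones, and Cacna1c sits at -2.18 and -3.02.

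Injured nuclei of the Gfra1 side differed from uninjured ones in both directions. Against Gfra1-side uninjured nuclei of the same libraries, 1450 of 12206 genes were higher (11.9%) and 1178 were lower (9.65%). Of the 2628 genes called, 1792 had the same direction in all 6 libraries, and for 323 of 12206 genes (2.65%) the levels of the 2 sets did not overlap. Of 23 regeneration-associated genes tested 21 rose and 0 fell, with a median log2 fold change of 1.33, against 0.0039 over all genes. The gate chose nuclei by Atf3 and other genes of the response to nerve injury. A rise of regeneration-associated genes is favored by that choice in advance, so it describes the gate and is no independent finding. From these data the study named Sox11, Itga7, Npy, Nts, Lmo7 and Mmp16 as raised after injury and Scn1a as lowered. Of 28 large-diameter neuron genes 14 fell and 1 rose, with a median of -0.33. Without the library block 221 genes rose and 115 fell, and without the IOT day 2 library 885 and 668. Without day 21, 783 fell.

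The largest rise among the genes named by rule was that of Frem3, at chr8:80611080-80695356, plus strand, which encodes an extracellular matrix protein. It stood at 178, 143, 54.6, 181, 22.3 and 133 CPM in Gfra1-side injured nuclei, against 5.43, 3.99, 1.23, 3.43, 0.914 and 2.23 CPM in Gfra1-side uninjured nuclei and 0.989 CPM in those of the 10x control. Every injured library was above every uninjured one, with a log2 fold change of 5.38 ± 0.16 (adjusted p = 3.3e-12). Gal-side injured nuclei held 36.6, 94.5 and 326 CPM, and the difference between the sides did not pass, at -0.13 ± 0.27 (adjusted p = 0.83). A UMI of Frem3 was found in 298 of 1096 Gfra1-side injured nuclei and in 60 of 8207 uninjured ones, with no nucleus above 20 UMIs.

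Neuropeptide genes were among the largest rises. Of 7 neuropeptide genes tested 3 rose and 0 fell. Npy, at chr6:49822710-49829507, plus strand, encodes neuropeptide Y and had 25.9, 289.9, 174, 66.6, 18.6 and 5.003 CPM in injured nuclei, against 2.99, 6.21, 4.66, 2.81, 1.07 and 0.371 CPM in uninjured nuclei, a log2 fold change of 4.79 ± 0.25 (adjusted p = 4.8e-09). The injured level was highest at IOT day 7 and lowest with scratch lesions, where it was 5.003 CPM. The injured sets of facial injury and scratch lesions held 268831 and 399781 UMIs of all genes, so their Npy levels rest on few molecules. Over all libraries 475 UMIs of Npy lay in 194 of 1096 injured nuclei, up to 17 in 1 nucleus, and 59 of 8207 uninjured nuclei held one. Adcyap1, which encodes the peptide PACAP, had 48.1, 127 and 318 CPM in injured against 8.58, 15.1 and 29.1 CPM in uninjured nuclei, with no overlap and a log2 fold change of 3.03 ± 0.21 (adjusted p = 1e-07).

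Nts, at chr10:102481756-102490486, minus strand, encodes neurotensin. It stood at 39.3, 233, 453, 175, 346 and 143 CPM in injured nuclei, against 4.62, 6.65, 11.8, 10.3, 15.4 and 13.7 CPM in uninjured nuclei and 1.78 CPM in the 10x control. The sets did not overlap, the level was lowest at day 2, and the log2 fold change was 4.33 ± 0.22 (adjusted p = 4.8e-09). Its 972 UMIs lay in 323 of 1096 injured nuclei, with 29 in 1 nucleus, and 220 of 8207 uninjured nuclei held a UMI.

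Csf1 encodes a growth factor for macrophages and microglia, and had 17.5, 37.6 and 111 CPM in injured against 1.96, 3.74 and 7.98 CPM in uninjured nuclei, with no overlap and a log2 fold change of 3.53 ± 0.25 (adjusted p = 1.2e-07). Acvr1c, the activin receptor-like kinase ALK7, had 7.44, 31.7 and 64.9 CPM in injured against 0.914, 1.41 and 4.35 CPM in uninjured nuclei, a log2 fold change of 4.13 ± 0.28 (adjusted p = 9.7e-08). Fst, whose product follistatin binds and blocks activin, had 18.4, 31.5 and 133 CPM in injured against 1.56, 2.99 and 5.03 CPM in uninjured nuclei, a log2 fold change of 3.84 ± 0.31 (adjusted p = 3.8e-07). Cckbr, a cholecystokinin receptor, and Xdh, which encodes xanthine dehydrogenase, had log2 fold changes of 3.62 ± 0.36 and 4.10 ± 0.32, and in none of these genes did the sets overlap. Bdnf, the ligand of the receptor Ntrk2, had 61.8, 77.4 and 158 CPM in injured against 22.2, 34.8 and 67.3 CPM in uninjured nuclei and a log2 fold change of 1.18 ± 0.12 (adjusted p = 5.5e-06). It was higher in 6 of 6 libraries, though the ranges overlapped.

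Of the 10 largest rises 3 were noncoding RNA genes, Gm29266 at 4.13 ± 0.28, 4930509E16Rik at 3.72 ± 0.20 and Gm26534 at 3.71 ± 0.19, and of the 10 largest falls Gm27032 was noncoding, at -1.75 ± 0.35, Gm13629 antisense, at -1.79 ± 0.16, and Nlrp1c-ps a pseudogene, at -1.79 ± 0.30. The strand setting of the counts is not stated, so reads of antisense and overlapping genes cannot be told apart.

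**Figure D3:**
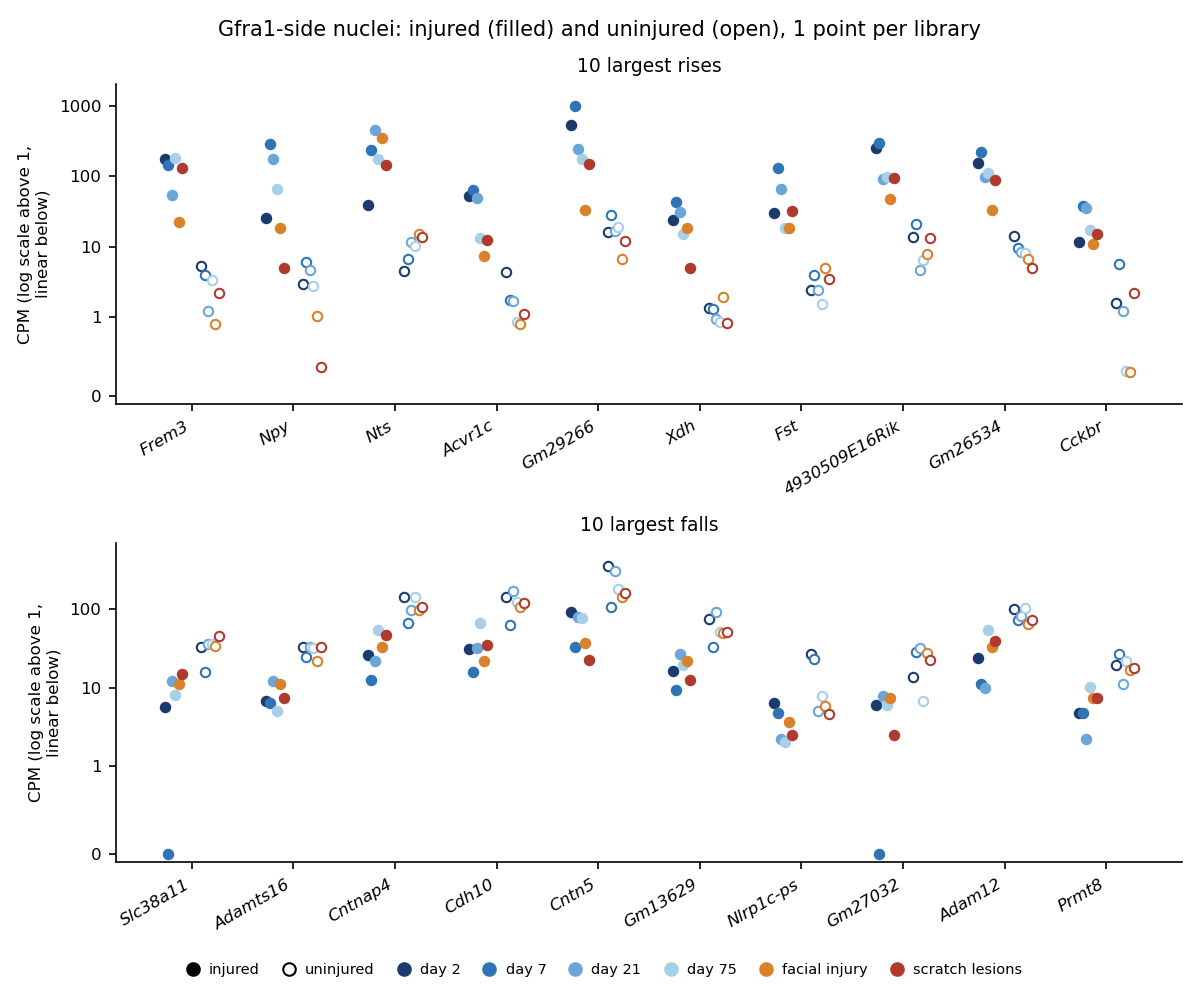
Levels of the 10 largest rises and the 10 largest falls after injury named by rule, in CPM on an axis that is logarithmic above 1 and linear below, with filled points for Gfra1-side injured nuclei and open points for Gfra1-side uninjured nuclei, 1 point per library. For Frem3 the filled points run from 22.3 to 181 and the open points from 0.914 to 5.43.

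Growth and regeneration genes rose together, a direction that the gate favors in advance. Sox11, at chr12:27334264-27342574, minus strand, had 475, 523, 693, 297, 272 and 260.1 CPM in Gfra1-side injured nuclei, against 65.8, 43.4, 76.5, 49.3, 62.0 and 72.7 CPM in Gfra1-side uninjured nuclei. The sets did not overlap, and the log2 fold change was 2.74 ± 0.19 (adjusted p = 1e-07). Gap43, a growth cone protein, had 230.1, 359 and 550.1 CPM in injured against 67.4, 94.7 and 163 CPM in uninjured nuclei, a log2 fold change of 1.92 ± 0.21 (adjusted p = 6.9e-06), and Tubb6, a beta-tubulin, had 15.4, 33.0 and 68.1 CPM in injured against 1.36, 3.87 and 6.49 CPM in uninjured nuclei, a log2 fold change of 3.25 ± 0.25 (adjusted p = 3.1e-07). Of 25 cytoskeleton and growth cone genes tested 15 rose and 1 fell, with a median of 0.67. Lmo7 had 32.5, 76.2 and 156 CPM in injured against 5.56, 10.2 and 13.3 CPM in uninjured nuclei and the log2 fold change 3.03 ± 0.22 (adjusted p = 1.7e-07).

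Of 25 integrins and matrix proteases tested 6 rose and 3 fell, where 11.9% of all genes rose and 9.65% fell. Itga7, a laminin-binding integrin, had 119, 222 and 342 CPM in injured against 42.1, 52.9 and 78.0 CPM in uninjured nuclei and the membrane protease gene Mmp16 398, 834 and 1638 CPM in injured against 138, 164 and 225 CPM in uninjured nuclei, both without overlap. Their log2 fold changes were 1.99 ± 0.16 and 2.25 ± 0.22. Pcdh15, a protocadherin known from hair-cell tip links, had 879, 467, 835, 366, 134 and 250.1 CPM in injured nuclei, against 95.4, 61.6, 77.7, 48.4, 42.3 and 39.1 CPM in uninjured nuclei. It rose in every library, with a log2 fold change of 2.91 ± 0.17 (adjusted p = 2e-08), while of the 8 protocadherins tested it was the 1 that rose and 4 fell.

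Cacna2d1, at chr5:15934691-16374511, plus strand, encodes the calcium channel subunit alpha2delta-1, to which gabapentin binds. It stood at 4462, 3501, 4192, 1469, 945 and 818 CPM in injured nuclei, against 389.7, 218, 383, 272, 322 and 289.7 CPM in uninjured nuclei. The injured level at IOT days 2 to 21 was well above that at day 75 and in the milder injuries, yet the lowest injured library still exceeded the highest uninjured one, and the log2 fold change was 2.79 ± 0.30 (adjusted p = 6.9e-06). Of 18 calcium and HCN channel genes tested 2 rose and 6 fell.

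Part of the receptor list around the gate gene Gfra1 rose. Of 18 GDNF and Ret genes tested 6 rose and 2 fell, with a median of 0.03. Ncam1, a cell adhesion molecule that can bind GDNF together with Gfra1, had 105, 232 and 398 CPM in injured and 42.6, 71.2 and 93.7 CPM in uninjured nuclei, with no overlap and a log2 fold change of 1.70 ± 0.25 (adjusted p = 0.00016). Gfra3, the artemin co-receptor, rose by 0.93 ± 0.20 (adjusted p = 0.0034) on the log2 scale, and Sdc3, a proteoglycan that can bind GDNF, by 0.94 ± 0.19 (adjusted p = 0.002). Ret itself, named after its value was seen, had a log2 fold change of 0.54 ± 0.12 (adjusted p = 0.0048).

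Promoters of the genes that rose were searched for 2 motifs bound by Atf3 and its partners, on both strands, from 250 bases before to 50 after the RefSeq start (GRCm38.p6). These were the cyclic AMP response element TGACGTCA and the AP-1 site in the loose form TGANTCA, which do not overlap each other as written. The loose form takes any base at N, so the AP-1 shares below are those of this pattern. The AP-1 site was in 6.45% of the 1024 risen genes with a promoter in the table, 6.30% of the 857 fallen genes and 5.74% of all 9026 tested. The cyclic AMP response element was in 3.42%, 3.501% and 3.78%, so risen and fallen genes held either motif at similar shares. Per promoter rather than per gene, 7.81% of all 32851 promoters in the table held the AP-1 site and 1.79% the cyclic AMP response element. Of the 10 largest rises 7 had a promoter in the table and 1 held a motif, namely Nts, and of the 21 regeneration-associated genes that rose 14 had one and 1 held a motif, namely Plaur. Plaur, named for this match, encodes the urokinase receptor and had a log2 fold change of 2.47 ± 0.36 (adjusted p = 0.00012) after injury. Both windows are printed to show where the AP-1 letters, in capitals, lie. The capitals start at -207 in Nts (chr10:102490369-102490668, minus strand) and at -69 in Plaur (chr7:24462233-24462532, plus strand), counted from the RefSeq start of each window. For Nts this start is not the one of the gene position given above.
Nts: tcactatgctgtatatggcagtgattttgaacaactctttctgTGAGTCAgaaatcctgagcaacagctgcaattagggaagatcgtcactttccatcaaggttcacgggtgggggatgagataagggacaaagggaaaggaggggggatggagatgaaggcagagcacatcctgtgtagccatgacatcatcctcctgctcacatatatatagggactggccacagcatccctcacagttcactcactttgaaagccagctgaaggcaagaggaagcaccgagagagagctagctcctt
Plaur: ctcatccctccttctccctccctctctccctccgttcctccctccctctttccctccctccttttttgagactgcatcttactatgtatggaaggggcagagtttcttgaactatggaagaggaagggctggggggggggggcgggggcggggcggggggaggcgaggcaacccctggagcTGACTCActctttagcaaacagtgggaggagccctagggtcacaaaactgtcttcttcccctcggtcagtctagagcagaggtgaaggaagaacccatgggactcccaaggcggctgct
A match is a description of the letters and no evidence of binding.

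Markers of large neuron subclasses fell. Slc38a11, at chr2:65316430-65364034, minus strand, encodes an amino acid transporter and stood at 5.67, 0, 12.2, 8.19, 11.2 and 15.0 CPM in Gfra1-side injured nuclei, against 33.7, 15.96, 36.5, 35.9, 34.4 and 45.6 CPM in Gfra1-side uninjured nuclei. The sets did not overlap, and the log2 fold change was -2.09 ± 0.23 (adjusted p = 9.6e-06). Adamts16, a matrix protease gene, had 5.12, 7.20 and 12.2 CPM in injured against 22.1, 32.5 and 33.4 CPM in uninjured nuclei and a log2 fold change of -1.96 ± 0.21 (adjusted p = 8e-06). Both genes are among the 18 markers of large neuron subclasses tested, of which 11 fell and 1 rose, with a median of -0.72.

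Several adhesion genes were among the largest falls. Cntnap4, a contactin-associated protein, had 12.7, 29.7 and 55.3 CPM in injured against 67.4, 103 and 143 CPM in uninjured nuclei, a log2 fold change of -1.85 ± 0.16 (adjusted p = 8.1e-07). Cntn5, a contactin, had 22.5, 57.0 and 94.0 CPM in injured against 108, 174 and 358 CPM in uninjured nuclei, a log2 fold change of -1.81 ± 0.14 (adjusted p = 3.6e-07). Cdh10, a classical cadherin, had a log2 fold change of -1.83 ± 0.17 (adjusted p = 2.4e-06) and the protocadherin gene Pcdh11x one of -1.38 ± 0.17 (adjusted p = 3.3e-05). Adam12, a membrane metalloprotease gene, and Prmt8, a brain arginine methyltransferase gene, had -1.69 ± 0.22 and -1.68 ± 0.25. Of 35 semaphorin, plexin, Eph, Slit and Robo genes tested 9 rose and 10 fell. Epha4, an ephrin receptor, fell and had 3.17, 10.7 and 25.6 CPM in injured against 27.9, 36.1 and 49.2 CPM in uninjured nuclei and a log2 fold change of -1.56 ± 0.20 (adjusted p = 4.6e-05). Of 11 netrin pathway genes 0 rose and 4 fell, led by the netrin receptor gene Unc5d at -1.64 ± 0.16 (adjusted p = 2.3e-06).

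Ion channels fell more often than they rose. Of 37 potassium channel genes tested 16 fell and 2 rose, with a median of -0.44, and of 14 sodium channel genes 3 fell and 0 rose. Kcnd2, the A-type channel Kv4.2, had 22.5, 37.5 and 46.1 CPM in injured and 82.0, 109 and 159 CPM in uninjured nuclei, with no overlap and a log2 fold change of -1.62 ± 0.14 (adjusted p = 7.2e-07). Kcnh7, an ERG-type channel, had 407, 812 and 1069.5 CPM in injured against 1071, 1644 and 2535 CPM in uninjured nuclei, a log2 fold change of -1.09 ± 0.10 (adjusted p = 2.1e-06). Scn1a, the sodium channel Nav1.1 of large sensory neurons, had 148, 69.7, 245, 203, 175 and 168 CPM in injured nuclei, against 374, 258, 494, 295, 313 and 316 CPM in uninjured nuclei. Its levels did not overlap and its log2 fold change was -1.05 ± 0.12 (adjusted p = 2.1e-05).

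Markers of large touch neurons fell unevenly. Esrrg had 131, 185 and 296 CPM in injured and 257, 457 and 614 CPM in uninjured nuclei, a log2 fold change of -1.19 ± 0.13 (adjusted p = 1.2e-05), and Rgs6, a regulator of G protein signaling, had 139, 216 and 402 CPM in injured against 368, 573 and 634 CPM in uninjured nuclei, a log2 fold change of -1.17 ± 0.14 (adjusted p = 2.2e-05). Both were lower in 6 of 6 libraries. Ntrk3, the neurotrophin-3 receptor, had a log2 fold change of -0.56 ± 0.11 (adjusted p = 0.0023) and Etv1, a transcription factor of muscle and touch afferents, one of -1.20 ± 0.18 (adjusted p = 0.0002). Calb2 and Map2, which separated the sides, were not called, at 0.20 ± 0.25 (adjusted p = 0.64) and 0.20 ± 0.10 (adjusted p = 0.19). The neurofilament genes, named after their values were seen, were not called either, with log2 fold changes of 0.01 for Nefh, 0.01 for Nefm and 0.08 for Nefl. Of 29 identity transcription factors 2 rose and 9 fell. Klf7, a factor of axon growth, was 1 of the 2 that rose, with 583, 725 and 941 CPM in injured against 292, 344 and 662 CPM in uninjured nuclei.

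Stress genes rose in part. Of 19 tested 6 rose and 1 fell. Cdkn1a, an inhibitor of the cell cycle, had 19.5, 39.3 and 133 CPM in injured and 6.62, 15.7 and 20.8 CPM in uninjured nuclei, a log2 fold change of 1.87 ± 0.26 (adjusted p = 7.7e-05). The fallen gene was Bcl2, which opposes cell death, with 33.3, 64.1 and 160.1 CPM in injured against 122, 177 and 223 CPM in uninjured nuclei and a log2 fold change of -1.16 ± 0.19 (adjusted p = 0.00037). Of 6 immediate early genes tested 2 rose and 0 fell.

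**Figure D4:**
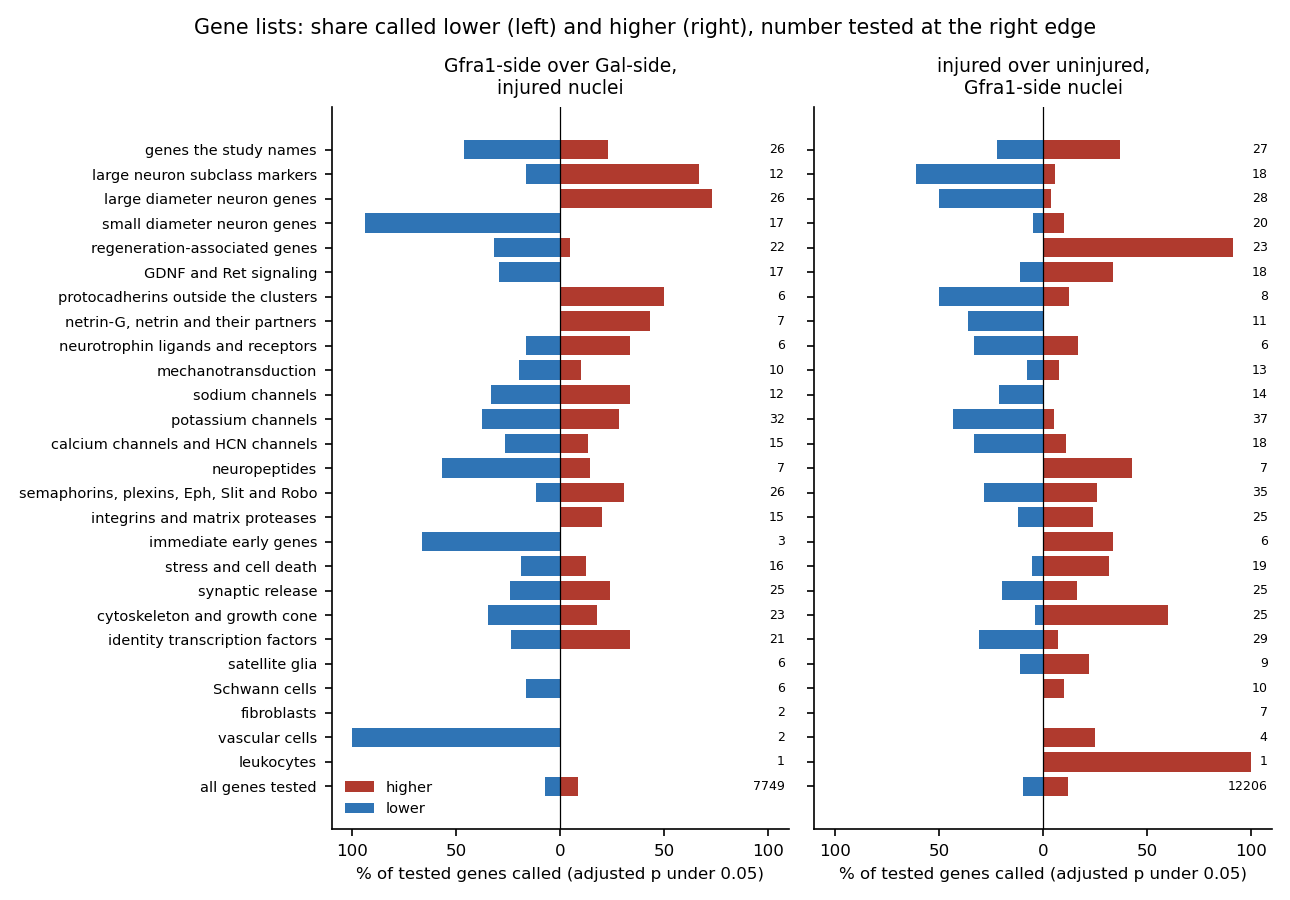
Percentage of the tested genes of each of 26 lists, and of all genes tested, that were lower (left) or higher (right), for Gfra1-side over Gal-side injured nuclei and for Gfra1-side injured over uninjured nuclei. Regeneration-associated genes rose in 21 of 23 cases after injury, and small-diameter genes were lower in 16 of 17 cases between the sides.

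The test of whether injury changed Gfra1-side nuclei more or less than Gal-side nuclei used all 4 sets. Of 13478 genes, 134 had a higher change on the Gfra1 side (0.994%) and 74 a lower one (0.549%), and without TMM scaling the split was 105 and 91. The Gfra1-side sets are the same as in the comparison above, so these values are no independent support for it. The study found the side genes Gfra1 and Gal themselves raised after injury, each selectively in a different class of injured neurons. The same genes may therefore sort injured and uninjured nuclei differently. A different sorting and a different injury change cannot be told apart here, and which applies was not tested.

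Pde1a, a calcium-dependent phosphodiesterase gene, had a higher injury change on the Gfra1 side. It had 11.2, 70.4 and 132 CPM in Gfra1-side injured and 12.6, 15.8 and 21.6 CPM in Gfra1-side uninjured nuclei. On the Gal side it had 4.57, 8.74 and 20.2 CPM in injured and 12.3, 16.6 and 23.4 CPM in uninjured nuclei. The difference between the log2 changes was 2.85 ± 0.43 (adjusted p = 0.00072). In the 4 IOT libraries Gfra1-side injured nuclei had 132, 103, 129 and 37.9 CPM at days 2, 7, 21 and 75, all above the uninjured range, and those of facial injury and scratch lesions had 11.2 and 17.5 CPM. Ncam1 also rose more on the Gfra1 side, by 1.57 ± 0.29 (adjusted p = 0.0047), and Gal-side nuclei held 286, 362 and 393 CPM injured and 233, 297 and 335 CPM uninjured.

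Several nociceptor genes that were higher on the Gal side were lower there in injured nuclei and about level on the Gfra1 side. Cacna1c had 92.6, 135 and 181 CPM in injured and 69.7, 108 and 140.2 CPM in uninjured Gfra1-side nuclei, and 289.6, 637 and 787 CPM in injured and 605, 925 and 1136 CPM in uninjured Gal-side nuclei. The difference in log2 change was 0.89 ± 0.19 (adjusted p = 0.015). Tac1, the source of substance P, had 38.0, 90.1 and 171 CPM in injured and 67.4, 87.1 and 192 CPM in uninjured Gfra1-side nuclei, and 137, 159 and 226 CPM in injured and 304, 533 and 686 CPM in uninjured Gal-side nuclei, a difference of 1.497 ± 0.29 (adjusted p = 0.0066). Prkca, a protein kinase C gene, Trpm3, the mu opioid receptor gene Oprm1 and Grik1 had differences of 1.0005 ± 0.20, 0.98 ± 0.22, 1.23 ± 0.28 and 1.24 ± 0.30.

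Other genes had a lower injury change on the Gfra1 side. Ano1, a calcium-activated chloride channel, had 16.7, 35.1 and 44.6 CPM in injured and 40.7, 74.5 and 90.3 CPM in uninjured Gfra1-side nuclei, against 4.57, 13.5 and 29.5 CPM in injured and 4.27, 8.89 and 11.1 CPM in uninjured Gal-side nuclei, a difference of -1.97 ± 0.36 (adjusted p = 0.0045). Esrrg and Slit2 had differences of -1.29 ± 0.29 and -1.02 ± 0.25. Sez6l, a membrane protein of neurons, had 27.5, 56.0 and 76.0 CPM in injured and 14.9, 18.4 and 30.05 CPM in uninjured Gfra1-side nuclei, against 12.6, 102 and 137 CPM in injured and 4.49, 5.16 and 6.69 CPM in uninjured Gal-side nuclei. The difference was -2.48 ± 0.34 (adjusted p = 0.00028), and Inhbb, which encodes an activin subunit, had the lowest at -3.78 ± 0.54 (adjusted p = 0.0005). Without the IOT day 2 library 18 genes were called in place of 208, and Cacna1c, Tac1, Prkca, Trpm3, Oprm1, Grik1, Ano1 and Slit2 were not among them. The fit called 116 without day 7, 77 without day 21, 130 without day 75 and 124 without facial injury. Of these, Cacna1c, Prkca, Trpm3, Oprm1, Grik1 and Slit2 were also lost without at least 1 of the other libraries. Pde1a, Sez6l and Inhbb passed whichever library was left out. The calls of Ncam1 and Esrrg were not followed with a library left out.

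Whether the injury change differed between IOT and the milder injuries was tested within libraries, 4 against 2. Of 12206 genes 2 had a higher change after IOT (0.0164%) and 0 a lower one (0%). For the lower direction 305 genes had an unadjusted p under 0.05 and DESeq2 called 4. Chl1, a neural adhesion molecule, had 402, 524, 665, 229, 141 and 110.1 CPM in Gfra1-side injured nuclei, against 83.1, 93.1, 92.7, 69.3, 133 and 75.3 CPM in uninjured nuclei. The ratio was near 1 after facial injury and larger after IOT, a difference of 2.13 ± 0.30 (adjusted p = 0.026) in log2 change. Folh1, a glutamate carboxypeptidase gene, had 113, 122, 205, 87.0, 37.2 and 40.0 CPM in injured and 61.7, 55.9, 79.2, 36.5, 64.4 and 53.6 CPM in uninjured nuclei, a difference of 1.82 ± 0.28 (adjusted p = 0.036). Neither passed without the day 21, facial injury or scratch lesion library, and 145 genes did without the day 75 library. With 2 milder libraries, 1 of them of another strain, the kind of injury cannot be told apart from strain and time. The gate also passed 0.206% of 10x control nuclei, against 0.577% after facial injury, 0.945% with scratch lesions and 3.41% to 9.76% after IOT. Of the Gfra1-side injured nuclei 36% and 27.0% in the milder libraries lay above the 95th UMI percentile, against 6.09% to 15.3% after IOT. The part of background and depth in these differences was not tested. Cacna2d1, which had its lowest injured levels in the milder libraries, did not pass, at 1.93 ± 0.33 (adjusted p = 0.058).

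Over the 4 times after IOT, few genes showed a trend in their injury change. Against log2 day, 0 of 12427 genes had a rising one (0%) and 5 a falling one (0.0402%), with 1 library per time and 2 residual degrees of freedom. For rises, 266 genes had an unadjusted p under 0.05. DESeq2 called 0 genes in either direction, and edgeR called 0 without TMM, at 6 UMIs and without high-UMI nuclei. Ecsit, a signaling adaptor of mitochondria, had 173, 174, 31.2 and 43.0 CPM in injured nuclei at days 2, 7, 21 and 75, and 20.9, 31.5, 30.2 and 30.9 CPM in uninjured nuclei. The level was high at the first 2 times, and the trend was -0.61 ± 0.10 (adjusted p = 0.028) per doubling of time. Clp1, an RNA kinase gene, had 184, 144, 33.4 and 33.8 CPM against 28.0, 32.8, 11.0 and 27.2 CPM, and a trend of -0.47 ± 0.08 (adjusted p = 0.028). Chrm3 had 291, 168, 148 and 77.8 CPM against 81.0, 71.4, 75.5 and 70.6 CPM, a trend of -0.34 ± 0.06 (adjusted p = 0.0496). Apart from Ecsit, the calls were lost without the day 75 library, while the fit called 356 genes without day 2, 28 without day 7 and 25 without day 21.

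The neuropeptides followed no log-linear course. Npy was highest at day 7 and Nts at day 21, and their trends of 0.18 ± 0.19 (adjusted p = 0.95) and 0.09 ± 0.15 (adjusted p = 0.98) per doubling of time did not pass. Sox11 and Csf1 did not pass either, at -0.09 ± 0.07 (adjusted p = 0.94) and -0.02 ± 0.17 (adjusted p = 0.999). Lmo7 had 156, 108, 77.9 and 36.9 CPM in injured nuclei over the 4 times and a trend of -0.38 ± 0.09 (adjusted p = 0.2). A p that misses the threshold with 1 library per time does not show a level to be stable.

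**Figure D5:**
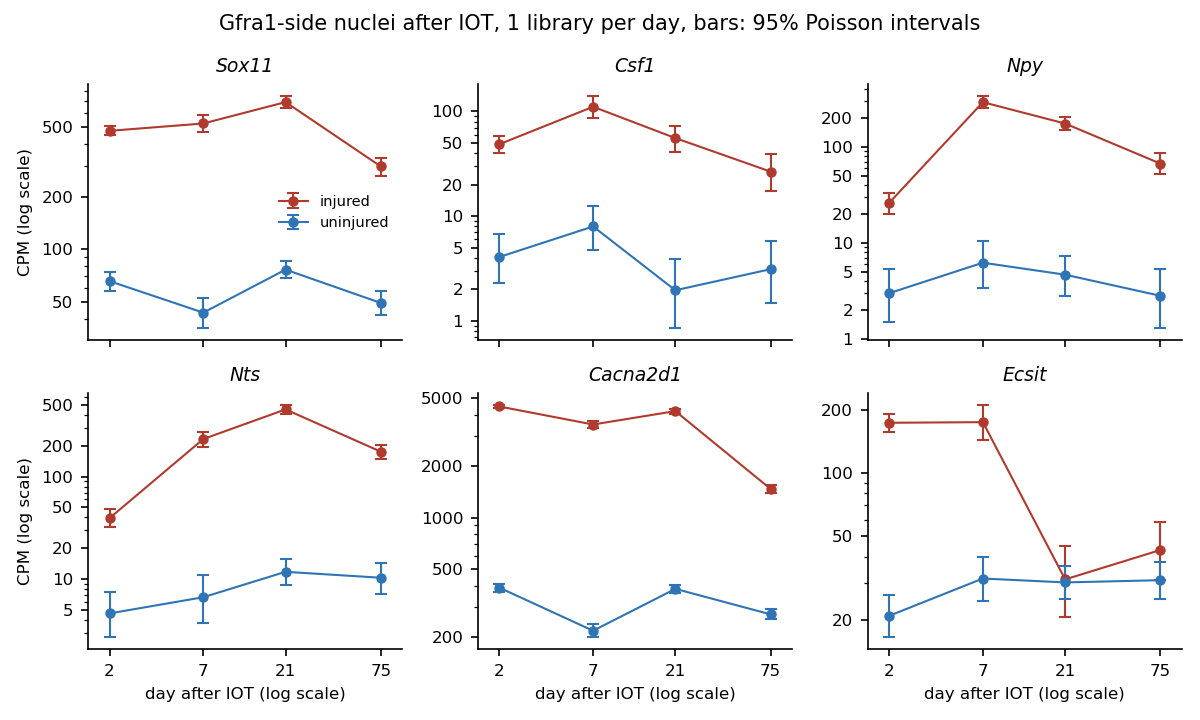
Levels of Sox11, Csf1, Npy, Nts, Cacna2d1 and Ecsit in Gfra1-side injured and uninjured nuclei at days 2, 7, 21 and 75 after IOT (log axes), with exact 95% Poisson intervals that cover counting error only. Injured levels lie above uninjured ones at every time in all 6 genes, though the Ecsit intervals overlap at days 21 and 75, and Nts is lowest at day 2.

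Markers of other cells in the ganglion were read in the same sums. The summed level of 9 listed satellite glia markers was 458 to 1034 CPM over libraries in Gfra1-side injured nuclei, against 510 to 1551 CPM in Gal-side injured and 324 to 881 CPM in Gfra1-side uninjured nuclei. That of 10 Schwann cell markers was 465 to 1267, 617 to 1797 and 425 to 1119 CPM in the same order. Between the sides 0 of 6 satellite glia markers were called, and 1 of 6 Schwann cell markers was lower. Vascular markers summed to 37.9 to 191 CPM in Gfra1-side injured nuclei, against 36.6 to 364 CPM in Gal-side injured and 50.3 to 129 CPM in Gfra1-side uninjured nuclei. Both vascular markers tested between the sides were lower, Rgs5 at -0.85 ± 0.24, which was lost without day 75, and Myh11 at -0.78 ± 0.24, which was lost without day 7 or scratch lesions. After injury 1 of 4 rose, Flt1 at 1.21 ± 0.27, which was lost without day 2 or day 7. After injury 2 of 9 satellite glia markers rose, Glul at 0.96 ± 0.10 and Kcnj10 at 1.27 ± 0.28, 1 fell, Ptprz1 at -0.64 ± 0.13, and 1 of 10 Schwann cell markers rose, Pmp22 at 0.44 ± 0.11. Fibroblast markers summed to 42.5 to 171 CPM and 0 of 7 were called. Leukocyte markers summed to 48.4 to 257 CPM in injured against 29.2 to 121 CPM in uninjured Gfra1-side nuclei, and Cx3cr1, the 1 gene of that list tested, had a log2 fold change of 0.998 ± 0.11 (adjusted p = 1e-05), while Aif1 was at 0 or not listed in 5 of the 6 libraries and Ptprc in 3. The part of these cells in the results was not tested.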

How the data were processed

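Nuclei of pooled trigeminal ganglia were sequenced with 10x Genomics 3' v2 chemistry. The deposited tables hold raw UMI counts per gene and nucleus, which the authors made with Cell Ranger 2.1.0 and mm10 with introns counted, after removing outlier nuclei and non-neuronal clusters. The annotation release and the strand setting are not given in the sources used here. Here nuclei were gated on raw counts as described, without calling doublets, and summed per library and set, leaving out a set with fewer than 10 nuclei. Sums were tested with edgeR 4.0.16 in R 4.3.3 (quasi-likelihood, TMM, filterByExpr) with library as a block. The 12 gate genes stayed in library sizes and out of tests. Genes that overlap a gate gene on the genome were tested. Between the sides, Gm26883, which overlaps Tshz2, was called at -1.99 and Macrod2, which overlaps Flrt3, at 0.48. After injury, Macrod2 was called at -1.24, E230016M11Rik, which overlaps Gadd45a, at -0.76 and Gm26883 at 0.58. Their own reads and those of the gate genes cannot be told apart. SE is the log2 fold change divided by the root of F. The gate, the gene lists and the tests were chosen with earlier results of these data known. Genes were named by rule: the 10 largest changes in each direction among called genes with a mean of at least 10 CPM in the higher set and the same direction in every library, 5 in each direction for differences in the injury change, up to 4 called genes per list, and every gene of the lists of genes the study names and of large neuron subclass markers. The labels give each condition 1 library, so p-values measure repeatability over libraries. Shares have exact Clopper-Pearson 95% intervals. Alternatives were DESeq2 1.42.0, no TMM, no low-count filter, no block, other gates and each library left out, and the script was tested on simulated data. Gene positions are from GENCODE vM21. The Drop-seq table entered only the shares. A few results are not reported here.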

Additional observations from a re-analysis of the deposited data

Results flagged for a closer look

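Each gene named here passed a test of a difference in its injury change, between the 2 sides, between kinds of injury or over time. Values are on the log2 scale ± SE, and the cause of each was not tested. Most of these calls did not hold in every setting. For the difference between sides, Pde1a and Sez6l kept their call in every setting, Inhbb lost it with DESeq2 and after thinning, and every other gene given here lost it without the IOT day 2 library. Chl1 and Folh1 lost theirs without the day 21, facial injury or scratch lesion library, and all genes called for time lost theirs with DESeq2, without TMM, at 6 UMIs and without high-UMI nuclei.

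The injury change was higher in Gfra1-side than in Gal-side nuclei for Cyp2j12, at 3.16 ± 0.61, Pde1a, at 2.85 ± 0.43, C1qtnf7, at 2.60 ± 0.46, Dnase1l3, at 2.40 ± 0.55, and Cacna1e, at 2.30 ± 0.54. The same direction was found for Tac1, at 1.497 ± 0.29, Grik1, at 1.24 ± 0.30, Oprm1, at 1.23 ± 0.28, Prkca, at 1.0005 ± 0.20, Trpm3, at 0.98 ± 0.22, and Cacna1c, at 0.89 ± 0.19. It was lower for Inhbb, at -3.78 ± 0.54, Anxa1, at -3.64 ± 0.75, Tgfbi, at -2.75 ± 0.67, the long noncoding RNA gene Rmst, at -2.66 ± 0.67, and Sez6l, at -2.48 ± 0.34. Ano1, at -1.97 ± 0.36, Adamts16, at -1.92 ± 0.43, Ntrk2, at -1.12 ± 0.26, and Slit2, at -1.02 ± 0.25, were lower too. The side genes Gfra1 and Gal rose after injury in the study, so they may sort injured and uninjured nuclei differently. A higher change on the Gfra1 side can also rest on a fall on the Gal side. Cacna1e had medians of 4.42 CPM in injured and 5.82 CPM in uninjured Gfra1-side nuclei. On the Gal side its medians were 7.72 CPM in injured and 37.1 CPM in uninjured nuclei. C1qtnf7 had medians of 7.21 and 6.14 CPM on the Gfra1 side, against 9.57 and 43.3 CPM on the Gal side.

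Anxa1, which encodes a phospholipid-binding protein, had 0, 2.37 and 7.50 CPM in injured and 0.624, 1.42 and 1.77 CPM in uninjured Gfra1-side nuclei, against 2.53, 22.4 and 44.2 CPM in injured and 0.249, 1.12 and 2.20 CPM in uninjured Gal-side nuclei. These levels rest on few molecules, with 9 UMIs of Anxa1 in 8 of 1096 Gfra1-side and 60 in 33 of 635 Gal-side injured nuclei. Inhbb had 1.02, 3.89 and 7.50 CPM in injured and 1.72, 3.55 and 4.08 CPM in uninjured Gfra1-side nuclei, against 4.57, 17.4 and 50.1 CPM in injured and 0.504, 0.985 and 2.56 CPM in uninjured Gal-side nuclei.

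The injury change was larger after IOT than after the milder injuries for Chl1, at 2.13 ± 0.30, and Folh1, at 1.82 ± 0.28. It fell per doubling of time after IOT for Ecsit, at -0.61 ± 0.10, Gm37913, at -0.55 ± 0.10, Clp1, at -0.47 ± 0.08, Nfe2l3, at -0.39 ± 0.07, and Chrm3, at -0.34 ± 0.06.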

How the results depend on the processing

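The percentage of nuclei passing as Gfra1-side injured moved with the gate. It was 7.79, 2.88, 3.31, 2.23, 0.277 and 0.498 at IOT days 2, 7, 21 and 75, facial injury and scratch lesions with at least 6 injury UMIs, and 0.0458 in the 10x control. It was 2.41, 1.49, 0.964, 0.413, 0.0513 and 0.120 with UMIs thinned to 1104 per nucleus, and 0 in the 10x and 0.0688 in the Drop-seq control. With a UMI of Atf3 required, an alternative chosen after seeing the data, it was 6.20, 3.94, 3.71, 1.35, 0.416 and 0.473, and 0.0687 in the 10x and 0.157 in the Drop-seq control. Without high-UMI nuclei it was 0.389 after facial injury and 0.726 with scratch lesions. Between the sides, 657 genes were higher and 564 lower, against 405 and 345 with DESeq2, 411 and 304 at 6 UMIs, 70 and 37 after thinning, and 412 and 340 with Atf3. After injury 1450 rose and 1178 fell, against 916 and 761 after thinning, and DESeq2 had 772 lower.

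The 4 sets of a library were paired by it, and a fit with no library block called 79 higher and 83 lower genes between the sides, 221 and 115 after injury, and 1160 and 1058 between uninjured sides. Leaving out 1 library at a time gave 429 to 656 higher and 340 to 550 lower genes between the sides, 885 to 1444 and 668 to 1114 after injury, and 3129 to 3754 and 3137 to 3819 between uninjured sides. It gave 18 to 257 genes for the difference between sides, 0 to 145 for the kind of injury and 4 to 356 for time. The difference between sides called 112 genes after thinning. The kind of injury, with 2 genes, called 17 with DESeq2, 7 without TMM, 78 without the low-count filter, 28 at 6 UMIs, 12 without high-UMI nuclei and 57 with Atf3, and could not be fitted after thinning. Time, with 5 genes, called 0 with DESeq2, without TMM, at 6 UMIs and without high-UMI nuclei, 80 without the filter, 22 after thinning and 1 with Atf3. Among named genes called between the sides, 25 of 97 kept their call in every setting, and among those called after injury 49 of 95. The same held for 2 of 21 genes for the difference between sides, 0 of 2 for the kind of injury and 0 of 5 for time. Grik1 turned from -1.84 to 0.29 between the sides after thinning. The causes were not tested.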
